A study of Rattus norvegicus with 8 samples.

Results

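Genes of insulin signalling and targets of the transcription factor FoxO1 were followed in rat liver after a diet with added phosphorus. The set held 10 genes of 14218 named on the array: the insulin receptor Insr, its docking proteins Irs1 and Irs2, the kinase subunit Pik3r1, Foxo1 itself, the FoxO1 targets Igfbp1, Pck1 and G6pc1, the related binding protein gene Igfbp2, and Prkab1, a subunit of the energy-sensing kinase AMPK. A gene was represented by each probe set that carried its symbol and no other in the platform annotation. A probe set counted as measured when its highest and lowest values among the arrays lay at least 0.05 (log2) apart. In all, 9 of the 10 genes had such a probe set, 8 were measured, and each of the 8 was measured by 1 probe set.

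The HP group held 4 male Wistar rats fed a high-phosphorus (HP) diet with 1.2% phosphorus for 24 days, and their controls were 4 male Wistar rats fed a diet with 0.3% phosphorus for the same time. Both diets were built on AIN-93G, a purified rodent diet, and all rats were 8 weeks old per the labels, housed 1 to a cage with free access to food and water. No genetic change is labelled in either group. RNA from whole liver was read on Affymetrix rat GeneChips with 1 array per animal, and the number of animals limits the precision. The sources used here do not say whether food was withdrawn before sampling.

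Insulin binds its receptor on hepatocytes, and the receptor phosphorylates docking proteins that recruit PI3K, which in turn activates the kinase AKT. AKT phosphorylates FoxO1 and holds it outside the nucleus, so that transcription of FoxO1 targets, among them genes of glucose production, falls after a meal and returns in fasting. That control acts mostly on the FoxO1 protein, and an array reads only the transcripts.

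The labelled tissue was checked first. The 7 hepatocyte markers on the array had mean log2 values of 11.14 to 14.53, with albumin (Alb) at 14.53, and 3 of them were measured. The 7 pancreas markers had mean log2 values of 5.89 to 9.23. Of these only the highest, Cela1, was measured, with a difference between the diets of 0.19 (standard error 0.10). Of 31042 probe sets, besides 57 control probe sets, 4155 (13.4%) were measured, and every array had a median of 6.65. No pair of the 8 arrays held identical values. Along the first principal component (38.9% of the variance), control rats 2 and 3 stood at -10.7 and -13.1, apart from HP rats at 8.3, 3.8, 3.6 and -4.6 and control rats 1 and 4 at 10.2 and 2.5. In whole liver, fewer cells of a type and less RNA per cell cannot be told apart. The summed linear level of the 3 measured sinusoidal endothelial markers was 2543 to 2796 in HP rats and 2237 to 2463 in control rats, without overlap, and rank products (described below) called 2 of the 3, Kdr and Stab2, higher. That of the 8 measured Kupffer cell markers was 4054 to 4719 in HP rats and 4082 to 5400 in control rats. All 8 had negative differences, with a median of -0.12 against -0.022 over all measured probe sets. Of the 8, 1 was called lower, Cd5l. The sum of the 5 measured stellate cell and fibroblast markers was 2328 to 2741 in HP rats and 2248 to 2764 in control rats, and none was called. Of the blood markers only the haemoglobin gene Hbb was measured, and it was called higher. Its linear level was 2667 to 3126 in HP rats and 2102 to 3198 in control rats. Over all measured probe sets, rank products called 8.5% higher and 12.1% lower. No marker of cholangiocytes or lymphocytes was measured (0 of 6 each). The part of other liver cells in the differences below was not tested.

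Promoter windows of the FoxO1 targets Igfbp1 and Pck1, and of Foxo1, are shown. They were picked because the levels of these 3 genes correlated positively from rat to rat, though none of the correlations passed adjustment (below). Each window runs 5′ to 3′ from 250 bases before to 50 bases after the annotated start, from RefSeq on GRCr8. Capitals mark the insulin response sequence in the forms CAAAACA and CAAAATA, the FoxO core GTAAACA and the cAMP response element core ACGTCA, searched on both strands.
Igfbp1, chr14:86261027-86261326, plus strand: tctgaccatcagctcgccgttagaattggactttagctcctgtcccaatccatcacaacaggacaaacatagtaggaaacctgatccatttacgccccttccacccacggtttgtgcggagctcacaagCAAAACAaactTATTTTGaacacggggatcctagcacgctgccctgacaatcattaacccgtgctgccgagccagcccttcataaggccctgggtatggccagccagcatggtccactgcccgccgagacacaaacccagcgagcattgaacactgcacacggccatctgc
Pck1, chr3:182348322-182348621, plus strand: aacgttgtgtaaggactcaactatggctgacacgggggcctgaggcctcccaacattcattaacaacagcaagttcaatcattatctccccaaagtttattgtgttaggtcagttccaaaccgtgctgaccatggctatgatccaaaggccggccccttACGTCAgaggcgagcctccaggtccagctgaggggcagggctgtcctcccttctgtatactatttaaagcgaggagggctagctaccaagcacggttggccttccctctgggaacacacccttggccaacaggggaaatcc
Foxo1, chr2:138462724-138463023, plus strand: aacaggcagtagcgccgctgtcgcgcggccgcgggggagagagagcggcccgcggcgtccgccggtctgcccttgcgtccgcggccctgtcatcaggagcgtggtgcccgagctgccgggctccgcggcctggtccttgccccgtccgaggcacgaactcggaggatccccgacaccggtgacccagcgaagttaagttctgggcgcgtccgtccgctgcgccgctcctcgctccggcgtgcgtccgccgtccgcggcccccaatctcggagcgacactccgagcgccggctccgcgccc

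The Igfbp1 window held CAAAACA on the plus strand from base -121 and CAAAATA on the opposite strand, printed as TATTTTG, from base -110, counted from the annotated start. Pairs of such elements are the classical insulin response unit of this gene. The Pck1 window held ACGTCA from base -91, the core through which cAMP acts on this promoter. No capitals stand in the Foxo1 window. Among 27457 promoter windows of the same length, 6.2% held CAAAACA, 4.94% CAAAATA, 3.76% GTAAACA and 8.22% ACGTCA on either strand. These matches are descriptions of the letters. Of the other members, G6pc1 held CAAAACA on the opposite strand from base -186 and Insr held GTAAACA on the opposite strand from base -100. A window was found for 9 of the 10 members.

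Differences between the diets lay in both directions among the members. Of the 8 measured members, 4 had a higher mean and 4 a lower mean in HP livers, and the sizes of the differences ran from 0.07 to 0.32 (log2), with a median of 0.22 against 0.09 over all measured probe sets. Rank products (RP), which takes the difference of every HP array from every control array (16 in all) and ranks all probe sets in each, called Irs2 and Prkab1 higher and Pik3r1, Foxo1 and Igfbp1 lower at a false discovery rate (FDR) under 0.05. By RP, 8.5% of all measured probe sets were higher and 12.1% lower, together 20.6% (2.76% of all probe sets), against 5 of the 8 members. Since the members were chosen with earlier results of these rats known, this count is a description. The moderated linear model of limma, adjusted after Benjamini and Hochberg over all 4155 measured probe sets, called 0 of the 8 members (adjusted p from 0.333 to 0.728) and 0 probe sets in all (0%). At an unadjusted p under 0.05, limma passed 1 member, Pik3r1, and 12.7% of all measured probe sets. When RP ranked only the 4155 measured probe sets, 0 members were called. The diets did not overlap in 1 of the 8 members and in 7.17% of all measured probe sets.

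**Figure D1:**
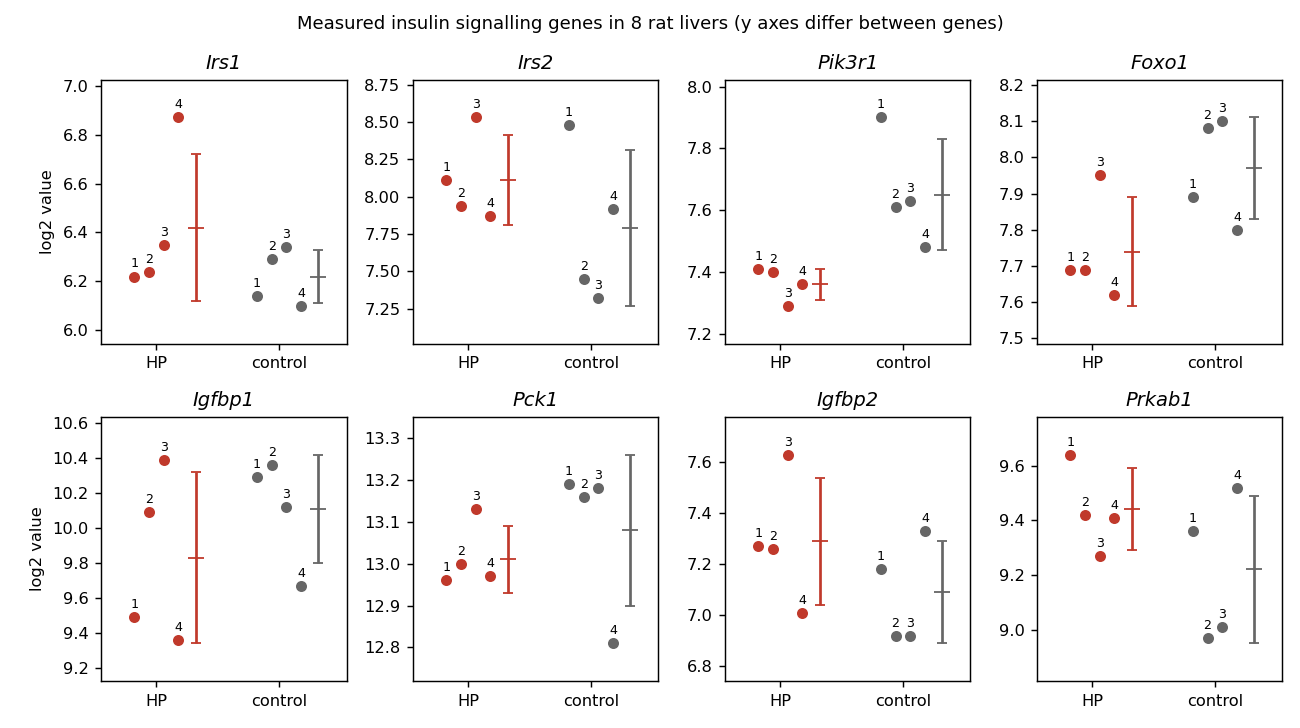
Log2 value of each measured member in the 8 livers, with HP rats in red on the left and control rats in grey on the right of each panel, numbered by rat, and the mean and SD of 4 rats beside them. Only Pik3r1 keeps the diets apart, with every HP rat below every control rat.

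**Figure D2:**
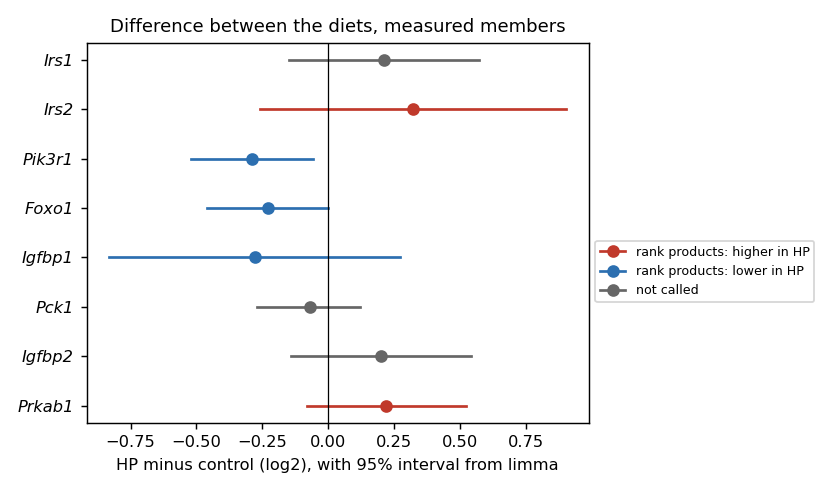
Difference of each measured member, HP minus control (log2), with its 95% interval from limma, coloured by the RP call. The interval of Pik3r1 (-0.52 to -0.06) lies below 0, that of Foxo1 reaches 0.00, and the other 6 hold 0.

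Receptor and docking proteins came first in the pathway. Insr, the receptor itself (chr12:5991135-6129275 on GRCr8), was present as 2 probe sets with mean log2 values of 6.49 and 7.55 in HP livers and in control livers. Both were among the 4 almost constant probe sets of the 12 that the members had, whose largest span was 0.000664. FARMS, the summary used for these arrays, gives such constant values where the probes of a probe set share no variation over the arrays. A difference in Insr was therefore not measurable here, and constant values do not show that a transcript is absent.

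Irs1, a docking protein that carries the signal from the receptor to PI3K (chr9:91001137-91053959), had log2 values of 6.22, 6.24, 6.35 and 6.87 in HP rats, against 6.14, 6.29, 6.34 and 6.10 in control rats. HP rat 4 lay far above all others, HP rat 3 was level with the highest control rat, and HP rats 1 and 2 lay among the control rats. The difference was 0.21 (standard error 0.16, RP FDR 0.0669, limma adjusted p = 0.567), and it was 0.06 without HP rat 4. RP called it higher without control rat 2 (FDR 0.0398) and without control rat 3 (FDR 0.0439).

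Irs2 showed the largest difference of the 8 measured members. It encodes the other main docking protein of the liver (chr16:85190310-85214543), and its gene is itself raised by FoxO1. Its log2 values were 8.11, 7.94, 8.53 and 7.87 in HP rats, against 8.48, 7.45, 7.32 and 7.92 in control rats. The diets overlapped, since control rat 1 exceeded 3 of the HP rats, and control rats 2 and 3 were the lowest. The mean was 8.11 ± 0.30 (SD, n = 4) in HP livers and 7.79 ± 0.52 (SD, n = 4) in control livers, a 1.25-fold difference (log2 0.32, standard error 0.25) that RP called higher (FDR 0.0159) and limma did not (adjusted p = 0.575). Leaving out control rat 3 gave a difference of 0.16, and leaving out control rat 1 gave 0.55. The RP call was lost without HP rats 1, 2 or 3 (FDR 0.0708, 0.0677 and 0.155) and without control rats 2 or 3 (FDR 0.0652 and 0.0823).

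Pik3r1 was the one member whose diets did not overlap. It encodes the p85α regulatory subunit of PI3K, which binds the docking proteins and holds the catalytic subunit (chr2:34612946-34697660). Its log2 values were 7.41, 7.40, 7.29 and 7.36 in HP rats, against 7.90, 7.61, 7.63 and 7.48 in control rats. The HP rats lay within a narrow band below every control rat, and control rat 1 was the highest. The level was 0.817 times that of control livers (log2 -0.29, standard error 0.10, limma adjusted p = 0.333). RP called it lower (FDR 0.0124), and the exact permutation test over the rats gave a two-sided p of 0.0286, the smallest that 4 against 4 allows. Such a separation, with HP below control, was seen in 4.07% of all measured probe sets. Without control rats 1, 2 or 3 the RP call was lost (FDR 0.0762, 0.0639 and 0.0675), with a difference of -0.21 without control rat 1.

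The differences of Pik3ca and Akt1, the other measured genes of PI3K and AKT, passed neither test. Of 11 genes on a list of PI3K and AKT, 3 were measured, and RP called 0 higher and 1 lower, Pik3r1. All 3 had negative differences, with a median of -0.09 against -0.022 over all measured probe sets. RP called 8.5% of all measured probe sets higher and 12.1% lower. Pik3ca, the catalytic subunit, differed by -0.07 (standard error 0.06) and Akt1 by -0.09 (standard error 0.07), neither of which was called. On the list of receptor and docking proteins, 3 of 10 genes were measured, and besides Irs2 RP called Shc1, an adaptor toward the MAP kinase pathway, lower (-0.23, standard error 0.08, FDR 0.0294). Its values were 9.15, 9.19, 9.35 and 9.06 in HP rats and 9.58, 9.31, 9.39 and 9.38 in control rats, so that HP rat 3 alone lay within the control range. The RP call of Shc1 was lost without HP rat 4 (FDR 0.0521) and without control rats 1, 2, 3 or 4 (FDR 0.126, 0.0806, 0.11 and 0.098).

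Foxo1 transcripts were lower on the HP diet by RP. The gene lies at chr2:138462974-138541420, and 1 of its 3 probe sets was measured, while the other 2 were constant at 6.19 and 6.77. Log2 values were 7.69, 7.69, 7.95 and 7.62 in HP rats, against 7.89, 8.08, 8.10 and 7.80 in control rats. HP rats 1, 2 and 4 lay below every control rat, and HP rat 3 lay above control rats 1 and 4. The level was 0.853 times that of control livers (log2 -0.23, standard error 0.10), with an RP FDR of 0.0344, a limma adjusted p of 0.398 and an exact permutation p of 0.0857 (two-sided). Of the 8 ways to leave out 1 rat, the RP call held in 1, without HP rat 3 (FDR 0.0114). The FDR was 0.0514, 0.0547 and 0.0642 without HP rats 1, 2 and 4 and 0.0682, 0.167, 0.172 and 0.0747 without control rats 1, 2, 3 and 4. Foxo3, the other measured FoxO factor, differed by 0.03 (standard error 0.36).

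Igfbp1 is the target most often read as a gauge of hepatic insulin action, since insulin represses it within hours, and its secreted product binds insulin-like growth factors. The gene lies at chr14:86261277-86266344. Log2 values were 9.49, 10.09, 10.39 and 9.36 in HP rats, against 10.29, 10.36, 10.12 and 9.67 in control rats. HP rats 1 and 4 were the lowest of all, but HP rat 3 was the highest of all, so the diets overlapped fully. The mean was 9.83 ± 0.49 (SD, n = 4) in HP livers and 10.11 ± 0.31 (SD, n = 4) in control livers (log2 -0.28, standard error 0.24, 0.825 times). RP called it lower (FDR 0.0302), limma did not (adjusted p = 0.62), and the exact permutation test gave p = 0.343 (two-sided). The difference was -0.46 without HP rat 3 and -0.12 without HP rat 4. The RP call was lost without HP rats 1 or 4 (FDR 0.132 and 0.152) and without control rats 1, 2, 3 or 4 (FDR 0.114, 0.146, 0.122 and 0.054).

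Pck1, the cytosolic phosphoenolpyruvate carboxykinase of glucose production (chr3:182348572-182354521), had log2 values of 12.96, 13.00, 13.13 and 12.97 in HP rats, against 13.19, 13.16, 13.18 and 12.81 in control rats. Control rats 1, 2 and 3 lay above every HP rat, and control rat 4 lay below every HP rat. The difference was -0.07 (standard error 0.09, 95% interval -0.27 to 0.12) and passed neither test (RP FDR 0.2, limma adjusted p = 0.728). Without control rat 4 it was -0.16, with an RP FDR of 0.122. G6pc1, the glucose-6-phosphatase that releases free glucose, shared each of its 4 probe sets with other gene symbols and is not named with a value here.

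Igfbp2, another binding protein for insulin-like growth factors, lies at chr9:81864811-81892179. It had log2 values of 7.27, 7.26, 7.63 and 7.01 in HP rats, against 7.18, 6.92, 6.92 and 7.33 in control rats. HP rat 3 was the highest and control rats 2 and 3 were the lowest, and HP rat 4 lay below control rats 1 and 4. The difference of 0.20 (standard error 0.15, 95% interval -0.14 to 0.54) was not called by RP (FDR 0.0575) or limma (adjusted p = 0.555), and it was 0.09 when HP rat 3 was left out and 0.30 when HP rat 4 was. RP called it higher without control rats 1 or 4 (FDR 0.0442 and 0.0152).

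Prkab1 encodes the β1 subunit of AMPK, which senses a low energy charge and restrains glucose production and lipid synthesis. The gene lies at chr12:46248971-46259487. Log2 values were 9.64, 9.42, 9.27 and 9.41 in HP rats, against 9.36, 8.97, 9.01 and 9.52 in control rats. Control rats 2 and 3 lay below all HP rats, whereas control rats 1 and 4 lay among them. The difference was 0.22 (standard error 0.13, 1.16-fold), called higher by RP (FDR 0.0484) and not by limma (adjusted p = 0.502). Of 11 AMPK genes 3 were measured, and RP called 1 higher, Prkab1, and 0 lower. Over all measured probe sets RP called 8.5% higher and 12.1% lower. The catalytic subunits differed by 0.01 (Prkaa1, standard error 0.07) and -0.16 (Prkaa2, standard error 0.12). The RP call of Prkab1 was lost without any HP rat (FDR 0.294, 0.143, 0.087 and 0.142 without HP rats 1, 2, 3 and 4) and without control rats 2 or 3 (FDR 0.173 and 0.149).

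The spread between rats of the same diet was wide for Irs2 and Igfbp1, with pooled SDs of 0.43 and 0.41, against a median of 0.13 over all measured probe sets. Those SDs exceed those of 96.3% and 95.7% of the measured probe sets. Irs1, Igfbp2 and Prkab1 had SDs of 0.23, 0.23 and 0.22, above those of 82.3%, 82.2% and 80% of them. Pik3r1, Foxo1 and Pck1 varied about as much as a typical probe set, with SDs of 0.13, 0.15 and 0.14. Set against this spread, the difference between the diets was -2.20 SD for Pik3r1 and -1.58 SD for Foxo1, and from -0.68 to 1.00 SD for the other 6. The part of this spread in the larger differences of the members (median size 0.22 against 0.09 over all measured probe sets) was not tested.

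**Figure D3:**
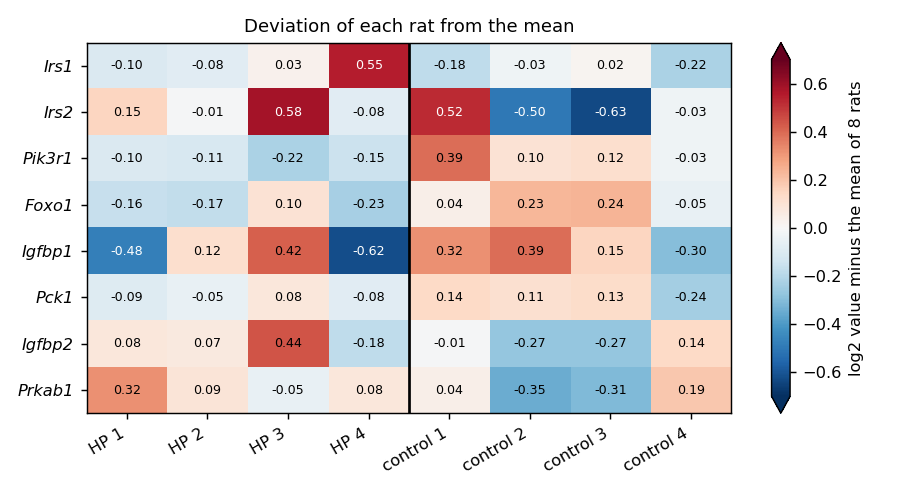
Deviation of each rat from the mean of the 8 rats (log2) for the 8 measured members, with the HP rats left of the black line and the control rats right of it. HP rat 3 is high in Irs2 (0.58), Igfbp1 (0.42) and Igfbp2 (0.44), and control rats 2 and 3 are low in Irs2 (-0.50 and -0.63) and Prkab1 (-0.35 and -0.31).

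From rat to rat, Foxo1, Igfbp1 and Pck1 correlated positively with each other and Prkab1 negatively with Foxo1 and Pck1, though none of these correlations passed adjustment. Foxo1 and Igfbp1 had a Pearson's r of 0.756 over the 8 rats (exact permutation p = 0.0401, adjusted p = 0.225 over the 28 pairs of measured members, two-sided) and a Spearman's rho of 0.762 (exact permutation p = 0.0368, adjusted p = 0.257). The r was 0.805 without the 2 rats farthest from the median of Foxo1 and 0.743 after the mean of each diet was removed. Foxo1 and Pck1 had an r of 0.72 (exact permutation p = 0.0483, adjusted p = 0.225) and a rho of 0.643 (exact permutation p = 0.0962, adjusted p = 0.385). Their r was 0.558 without the same 2 rats and 0.746 within diets. Igfbp1 and Pck1 had an r of 0.773 (exact permutation p = 0.0316, adjusted p = 0.225) and a rho of 0.69 (exact permutation p = 0.0694, adjusted p = 0.324). Their r was 0.882 without the 2 rats farthest from the median of Igfbp1 and 0.75 within diets.

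Prkab1 and Foxo1 had the r farthest from 0 of the 28 pairs, -0.859 (exact permutation p = 0.0065, adjusted p = 0.182), and a rho of -0.762 (exact permutation p = 0.0368, adjusted p = 0.257). Within diets the r was -0.815, and without the 2 rats farthest from the median of Foxo1 it was -0.553, so part of the relation rests on those rats. Prkab1 and Pck1 had an r of -0.745 (exact permutation p = 0.0371, adjusted p = 0.225) and a rho of -0.786 (exact permutation p = 0.0279, adjusted p = 0.257). Their r was -0.916 without the 2 rats farthest from the median of Pck1 and -0.726 within diets. Irs2 and Igfbp2 had an r of 0.802 (exact permutation p = 0.0185, adjusted p = 0.225) and a rho of 0.762 (exact permutation p = 0.0368, adjusted p = 0.257). Their r was 0.572 without the 2 rats farthest from the median of Irs2 and 0.76 within diets. Of the 28 pairs, 6 passed a Pearson p under 0.05 unadjusted and 0 passed after Benjamini-Hochberg adjustment. All members of a rat were read on the same array, so the values share whatever moves that array as a whole.

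**Figure D4:**
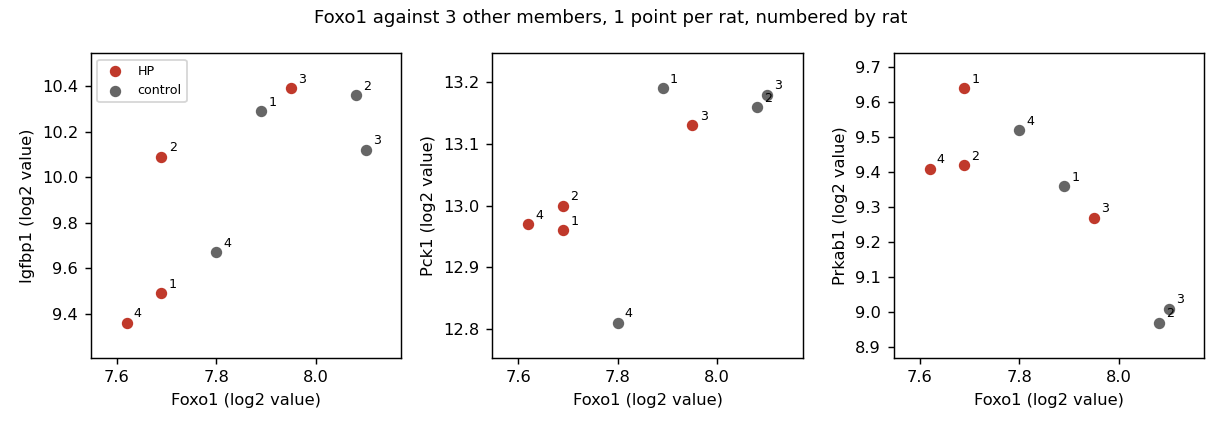
Foxo1 (log2 value, horizontal) against Igfbp1, Pck1 and Prkab1 (log2 value, vertical), 1 point per rat, HP in red and control in grey, numbered by rat. Rats with more Foxo1 have more Igfbp1 and Pck1 (r = 0.756 and 0.72) and less Prkab1 (r = -0.859), with HP rats 1, 2 and 4 at the low end of Foxo1 and HP rat 3 among the control rats.

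Among 2807 named genes, the 3 with the highest Pearson's r over the 8 rats were found for each member called by RP. For Irs2 they were Klf11 (r = 0.977), a Krüppel-like transcription factor, Adh1c (0.937) and Adcy10 (0.916). For Foxo1 they were Slc33a1 (0.969), which carries acetyl-CoA into the endoplasmic reticulum, Syvn1 (0.959), a ubiquitin ligase of the same organelle, and Sec22b (0.955), a vesicle fusion protein between it and the Golgi. For Igfbp1 they were Pxmp4 (0.954), a peroxisomal membrane protein, the clock gene Per1 (0.928) and Crebrf (0.927). For Pik3r1 they were Ddx3x (0.937), Agt (0.902) and Apoe (0.901), and for Prkab1 they were Col5a2 (0.937), Serinc3 (0.932) and Klkb1 (0.929). These r are descriptions, chosen as the highest of many.

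Per1 had log2 values of 6.96, 7.63, 7.49 and 6.83 in HP rats and 7.74, 7.72, 7.68 and 7.24 in control rats. HP rats 1 and 4 were lowest in both genes. The r of Per1 with Igfbp1 was 0.742 without the 2 rats farthest from the median of Igfbp1. Klf11 followed Irs2, with 7.64, 7.51, 7.97 and 7.53 in HP rats and 7.76, 7.22, 7.16 and 7.58 in control rats. The r of Klf11 with Irs2 was 0.976 within diets and 0.962 without the 2 rats farthest from the median of Irs2.

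Targets of FoxO1 did not lie on 1 side. Of 20 listed genes 14 were measured, and 6 had positive and 8 negative differences with a median of -0.02, against -0.022 over all measured probe sets. RP called 3 higher, Irs2, Ppargc1a and Pdk4, and 4 lower, Igfbp1, Bcl6, Cited2 and Trib1. Of all measured probe sets RP called 8.5% higher and 12.1% lower. The list was written with earlier results of these rats known and holds Irs2 and Igfbp1, so these counts are descriptions. Limma called 0 of the targets (smallest adjusted p = 0.416). Ppargc1a, the coactivator PGC-1α of glucose production, differed by 0.28 (standard error 0.19, FDR 0.0279), while its other 2 measured probe sets differed by 0.06 and 0.04 and were not called. Pdk4, which closes pyruvate dehydrogenase in fasting, differed by 0.31 (standard error 0.40, FDR 0.0169), and by 0.09 at its second probe set, which was not called. Without control rat 3 the difference of Pdk4 was 0.03, and without HP rat 3 that of Ppargc1a was 0.13. The RP call was lost without HP rats 1, 2 or 3 or control rat 3 for both genes, and also without control rat 2 for Ppargc1a (FDR up to 0.317 for Ppargc1a and 0.18 for Pdk4).

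Bcl6, a transcriptional repressor, had the widest spread of the targets called. Its log2 values were 9.05, 8.34, 8.70 and 10.95 in HP rats, against 9.91, 10.49, 10.78 and 8.69 in control rats. HP rat 4 was the highest of all, and control rat 4 lay among the 3 low HP rats, so that the difference of -0.71 (standard error 0.61, RP FDR 0.000714, limma adjusted p = 0.614) was little larger than its standard error. Its RP call held with each of the 8 rats left out, with differences from -1.27 (HP rat 4 left out) to -0.40 (HP rat 2 left out). Cited2, a coregulator, differed by -0.25 (standard error 0.12, FDR 0.0293) and by -0.26 at its second probe set, also called lower (FDR 0.0231), and the call at the first held in 2 of the 8 ways to leave out 1 rat, without HP rat 1 or HP rat 4 (FDR up to 0.19 in the others). Trib1, a pseudokinase that marks proteins for degradation, differed by -0.36 (standard error 0.17, FDR 0.0167), and its call was lost without HP rat 2 (FDR 0.0629, difference -0.24) and without control rats 1, 2 or 4 (FDR 0.091, 0.0657 and 0.0907). Sod2, Cat and Mttp, targets in oxidant defence and lipoprotein assembly, differed by 0.05, -0.03 and -0.00 and were not called.

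The RP calls among the targets depended on single rats. The count called higher was 0 without HP rats 1, 2 or 3 or control rat 3 and 1 without control rat 2. The count called lower was 1 without control rats 1, 2 or 4 and 2 without HP rat 2 or control rat 3. Ranking only the measured probe sets left 0 higher and 1 lower, Bcl6 (FDR 0.0155).

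Genes that insulin induces in liver mostly had lower means in HP livers. Of 12 listed genes 10 were measured, and 9 had negative differences and 1 a positive one. Their median was -0.21, against -0.022 over all measured probe sets. RP called 6 lower, Srebf1, Fasn, Acly, Elovl6, Pnpla3 and Thrsp, and 1 higher, Me1. Its shares of all measured probe sets were 12.1% lower and 8.5% higher. Limma called 0 of the listed genes (smallest adjusted p = 0.406). Lipid synthesis genes of the same rats had been examined before this list was written, so its direction is not independent support. Thrsp, which supports lipogenesis, had log2 values of 9.92, 10.74, 10.57 and 11.02 in HP rats, against 10.17, 11.24, 11.54 and 11.76 in control rats. It differed by -0.61 (standard error 0.35, RP FDR 0.000933, limma adjusted p = 0.47), and control rat 1 lay among the HP rats. The RP call of Thrsp held with each rat left out, with differences from -0.95 (control rat 1 left out) to -0.40 (HP rat 1 left out), and among the measured probe sets alone (FDR 0.0397).

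Srebf1, the lipogenic transcription factor SREBP-1, had log2 values of 9.49, 9.49, 9.28 and 10.15 in HP rats, against 9.05, 9.90, 10.61 and 10.29 in control rats. Control rat 1 was the lowest of all, and the difference was -0.36 (standard error 0.32, FDR 0.0107). Fasn, fatty acid synthase, differed by -0.26, Acly, ATP citrate lyase, by -0.24, the elongase Elovl6 by -0.26 and Pnpla3, a lipid droplet protein, by -0.17 (standard errors 0.23, 0.24, 0.24 and 0.44, RP FDR 0.0232, 0.0217, 0.0363 and 0.0148). Me1, malic enzyme, differed by 0.23 (standard error 0.10, FDR 0.0353) and by -0.10 at its second probe set, with the call lost without HP rats 2, 3 or 4 or control rat 1 (FDR 0.229, 0.117, 0.186 and 0.0903), and 1 probe set of Pnpla3 differed by 0.04. Elovl6 differed by -0.53 at its second probe set, also called lower (FDR 0.00332). At its first the difference was -0.08 without HP rat 1, and the call was lost without HP rats 1 or 4 (FDR 0.234 and 0.0605) and without control rats 2, 3 or 4 (FDR 0.137, 0.249 and 0.129). The difference of Pnpla3 changed sign without HP rat 1 (0.07) and without control rat 4 (0.05). RP still called Pnpla3 lower without HP rat 1, against the sign of that difference. Its call was lost without control rats 2, 3 or 4 (FDR 0.0859, 0.111 and 0.142). Without control rat 1 the differences were -0.66 in Srebf1, -0.48 in Fasn, -0.50 in Acly and -0.64 in Pnpla3, and without control rat 3 they were -0.14 in Srebf1, -0.11 in Fasn and -0.11 in Acly. The count called lower was 1 without control rats 2, 3 or 4 and 1 when only the measured probe sets were ranked.

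**Figure D5:**
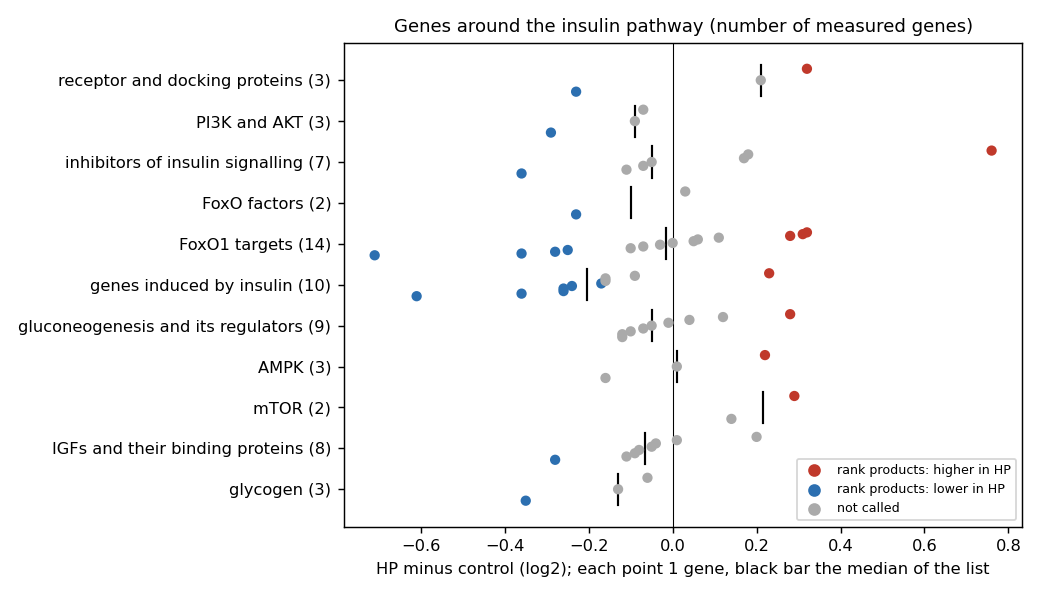
Difference of each measured gene on 11 lists around the insulin pathway, HP minus control (log2), 1 point per gene, with RP calls higher in HP in red and lower in HP in blue and the median of each list as a black bar. FoxO1 targets spread on both sides of 0 (median -0.02) and 9 of the 10 genes induced by insulin lie below it (median -0.21).

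Inhibitors of insulin signalling held RP calls in both directions. Among 7 measured inhibitors, RP called 1 higher, Socs2, and 1 lower, Trib1. Of all measured probe sets it called 8.5% higher and 12.1% lower. Socs2, which restrains growth hormone and cytokine receptors, had log2 values of 8.10, 8.01, 7.36 and 7.20 in HP rats, against 7.91, 6.36, 6.35 and 7.01 in control rats. It differed by 0.76 (standard error 0.36, RP FDR 0.000313, limma adjusted p = 0.415), with control rat 1 above HP rats 3 and 4. Its RP call held with each rat left out, with differences from 0.58 (control rat 2 left out) to 1.09 (control rat 1 left out), and among the measured probe sets alone (FDR 0.0203). Trib3, which binds AKT, differed by 0.17 at the probe set that stands for it and was not called there (FDR 0.0978), but by 0.18 and 0.35 at 2 others that were called higher (FDR 0.0463 and 0.00664). Grb14, an adaptor that blocks the receptor, differed by -0.11 and was not called.

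Eif4ebp1, the translation repressor 4E-BP1 that mTOR switches off, separated the diets. Its log2 values were 8.30, 8.42, 8.26 and 8.19 in HP rats, against 8.11, 8.03, 7.88 and 7.98 in control rats, and every HP rat lay above every control rat. It differed by 0.29 (standard error 0.08, RP FDR 0.00667, limma adjusted p = 0.245). The RP call was lost without HP rat 2 (FDR 0.0729) and among the measured probe sets alone (FDR 0.459). In 3.1% of all measured probe sets the HP rats lay wholly above the control rats. Of 13 mTOR genes 2 were measured, and the other, Deptor, differed by 0.14 (standard error 0.12) and was not called. RP called 8.5% of all measured probe sets higher.

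Genes of glucose production, glycogen and insulin-like growth factors gave 1 RP call each at the probe sets that stand for the genes. RP called 20.6% of all measured probe sets, 8.5% higher and 12.1% lower. Of 9 measured genes of gluconeogenesis and its regulators, only Ppargc1a was called at the probe set that stands for it. Hnf4a, a hepatocyte transcription factor, differed by -0.10 at the probe set that stands for it and was not called (FDR 0.265), but by 0.45 (standard error 0.14) at another that was called higher (FDR 0.00514, limma adjusted p = 0.32). Fbp1, fructose bisphosphatase, differed by -0.12 (standard error 0.05) and the transcription factor Cebpb by -0.12 (standard error 0.17), and neither was called. Among 3 measured glycogen genes RP called Ppp1r3b, which brings a phosphatase to glycogen, lower (-0.35, standard error 0.20, FDR 0.0168). That call was lost without HP rats 3 or 4 (FDR 0.0659 and 0.0553) and without control rats 2 or 3 (FDR 0.154 and 0.11), and the difference was -0.23 without HP rat 4 or control rat 2. Pygl, glycogen phosphorylase, differed by -0.13 (standard error 0.06) and was not called. Of 8 measured genes of insulin-like growth factors and their binding proteins, Igfbp1 alone was called. Igf1 differed by -0.09 (standard error 0.08).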

How the data were processed

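Liver RNA of 4 HP rats and 4 control rats was measured with 1 array each. According to the authors, CEL files were quantified with FARMS in R 2.13.1, and the deposited values are log2 values per probe set. How arrays were normalized against each other is not stated in the sources used here, and no normalization was added. Columns were matched to rats by their labels, with 0 columns left unmapped. Nothing in the labels says that rats of the same number were related. Genes were named from the platform annotation and located with RefSeq on GRCr8, a build that the arrays did not use, and promoters came from the same release.

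RP was computed in Python 3.11.15 (numpy 2.4.6, pandas 2.3.3) over all probe sets, with 1000 permutations within arrays. Limma 3.58.1 in R 4.3.3 was fitted to the 4155 probe sets spanning at least 0.05, with a trend and robust estimation, two-sided, at an adjusted p under 0.05. Exact permutation tests between the diets used scipy 1.17.1, and figures matplotlib 3.10.9. Those of the correlations ran over all orders of the 8 rats in numpy.

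A list gene with several probe sets was represented by the brightest measured one. Named were all members, the list genes called by either test or, where fewer than 2 were called, the 2 with the largest difference, and the 3 genes most like each member called by RP. Sod2, Cat, Mttp, Trib3, Grb14, Hnf4a, Igf1, the catalytic AMPK subunits and the second probe sets were added after their values were seen. Members and lists were chosen with earlier results of these data known. Alternatives were quantile normalization, centring on the measured probe sets, a span of 0.2 or none, leaving out the dimmest 25% of probe sets, ranking only measured probe sets, plain empirical Bayes, array weights (statmod 1.5.0), a replicate block and leaving out each rat.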

Additional observations from a re-analysis of the deposited data

Results flagged for a closer look

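In 70 groups of 4 rats over 35 genes, 4 groups held a rat far from the other 3, where chance gives about 1 in 20 groups. Among the members, Pck1 was 12.81 in control rat 4, against 13.16 to 13.19 in the other control rats. Control rat 1 stood apart in the remaining 3. In Acly it had 10.62, against 11.59 to 11.79 in the other control rats. In Foxo3 it had 10.66, against 9.17 to 9.33, and in Deptor 10.14, against 9.64 to 9.67. In the fit with array weights, control rats 1 and 4 also received the lowest weights of the 8 rats, 0.4227 and 0.5141.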

How the results depend on the processing

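Limma called 0 members and 0 probe sets under each of its alternatives, and in 128 of 128 comparisons of a member's difference under an alternative the sign was that of the reported value. Part of these 128 was fixed in advance. The span settings, leaving out the dimmest probe sets, plain empirical Bayes and the replicate block cannot change a difference of means. RP depended on the setting, and the cause was not tested. Its counts of 353 probe sets higher and 503 lower became 233 and 307 without the dimmest 25% of probe sets and 25 and 17 when only measured probe sets were ranked. With 1 rat left out, the higher count ran from 85 (without HP rat 2) to 586 (without control rat 1) and the lower count from 72 (without control rat 3) to 538 (without HP rat 1). Against 5 members called, 3 were called without the dimmest probe sets, 0 among the measured probe sets alone and 1 to 4 with 1 rat left out, where Irs1 or Igfbp2 came in for others: of the same 5 members, 0 (without control rat 2 or 3) to 3 (without HP rat 3 or control rat 4) were called. Over 96 member results of RP, 58 kept their side of the threshold, 34 lost the call, 4 gained one and 0 changed direction. Centring and quantile normalization each left 5 members called. For list genes called by RP, the same settings were added after seeing the data, and the difference of Pnpla3 alone changed sign, running from -0.64 to 0.07 with 1 rat left out. Array weights gave 0.58 for Irs2, 0.35 for Igfbp2 and 0.12 for Irs1.

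The replicate numbers showed no clear pairing of the rats. After the mean of each diet was removed, the measured probe sets of same-numbered rats correlated at 0.479, 0.031, -0.123 and -0.197. Of 8 rats, 2 correlated best, among rats of the other diet, with the rat of their own number. With the replicate block, limma called 0 probe sets and 0 members. The mean of several probe sets of a gene gave no other value, as each measured member had 1.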
